A study of Mus musculus with 6 samples.

Results

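The CCN genes encode a small family of secreted, cysteine-rich matricellular proteins. Members were taken as every probe of the array whose symbol in the platform annotation was Ccn1, Ccn2, Ccn3, Ccn4, Ccn5 or Ccn6. Of the 6 genes named, 5 had probes, 10 probes in all out of 45281 on the array, and 5 genes of the 19057 that the array names. Ccn6 was not analysed here. The family was chosen by the measured differences between FEAT and control clones, in which Ccn2 and Ccn5 were already known to be higher. Its differences between the groups are therefore given as a description, with no p-value. The calls of CCN probes by limma are counted beside those of all probes and followed through the refits, with nothing read from them.

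RNA came from 6 stable clones of NIH3T3, an immortalized fibroblast line from embryos of NIH Swiss mice, with 1 array per clone. The clones FEAT-3, FEAT-15 and FEAT-20 (FEAT 3, FEAT 15 and FEAT 20 below) held human FEAT, a methyltransferase of the translation factor eEF1A also named METTL13, as its coding sequence in pEF-DEST51, under the elongation factor 1alpha promoter. They were picked as colonies after 7 days in 10 µg/ml blasticidin S and chosen for high FEAT protein. The clones ΔccdB-1, ΔccdB-2 and ΔccdB-3 (control 1, control 2 and control 3) held that vector without FEAT and with ccdB deleted. How the control clones were selected is not stated in the labels used here. Every clone was grown from cells that had taken up a plasmid, so the 3 values of a group are 3 separate lines, and a difference between lines that does not come from FEAT cannot be told apart from an effect of FEAT in any 1 clone. Each array read bulk RNA, in which more transcript per cell and more cells with the transcript cannot be told apart.

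CCN proteins are built from up to 4 modules, which resemble an insulin-like growth factor binding protein, a von Willebrand factor type C repeat, a thrombospondin repeat and a C-terminal cystine knot. They bind integrins and heparan sulphate proteoglycans and tune how cells read growth factors and matrix, rather than serving as scaffold themselves. In fibroblasts, Ccn1 and Ccn2 are fast-responding genes, induced by serum, by TGF-beta and by mechanical load through SRF and through YAP and TAZ with their TEAD partners. Ccn4 and Ccn5 were first described as genes induced by Wnt1, and Ccn5 lacks the C-terminal module.

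The array means lay between 616 and 735 intensity units, and 37.8% to 42.4% of probes were above the background limit of their array. That limit is the mode of an array's log2 intensities plus 3 SDs, taken from the values under that mode, and it corresponded to intensities of 91.9 to 98.9. Of 10 fibroblast markers, 9 were above the limit on all 6 arrays (all but Lum, which was above it on none), and their summed intensity was 39602 to 42596 in control clones and 43383 to 53208 in FEAT clones. Of the markers of other cell types, Cdh1, Krt14, Des, Lpl, Bglap2 and Sox9 were above the limit on all 6 arrays. Bglap2, a bone marker, was lower in FEAT clones, at 140 ± 10.7 against 248 ± 36.9 in the control (SD over 3 clones; log2 -1.06, limma, adjusted p = 0.0420), and no other marker was called. The summed intensity of the 6 bone and cartilage markers on the array was 9735 to 14616 in control and 9662 to 13434 in FEAT clones. That of the 5 adipocyte markers was 4943 to 5855 in control and 3677 to 4958 in FEAT clones. The 7 epithelial markers summed to 15789 to 25825 and 20112 to 25994, and the 4 muscle markers to 352 to 383 and 372 to 396. Endothelial and leukocyte markers were above the limit on all 6 arrays in 0 of 6 and 0 of 4 genes, with summed intensities of 469 to 508 and 293 to 296 in control clones and 497 to 533 and 309 to 328 in FEAT clones. The part of these markers in the CCN differences was not tested. The mouse counterpart of FEAT, Eef1aknmt, read 677 ± 68.8 in control and 712 ± 57.7 in FEAT clones on its brightest probe (SD, n = 3 clones each), which gives no check of the human insert.

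Of the promoters of the 5 genes with probes, only that of Ccn1 was in the set of RefSeq promoters used here, so it alone is shown. Ccn1 is known as a TEAD target. The stretch is the 250 bases before the RefSeq gene start, chr3:145649986-145650235 on the minus strand of GRCm38.p6, written 5′ to 3′. Capitals mark the motif matches.
Ccn1: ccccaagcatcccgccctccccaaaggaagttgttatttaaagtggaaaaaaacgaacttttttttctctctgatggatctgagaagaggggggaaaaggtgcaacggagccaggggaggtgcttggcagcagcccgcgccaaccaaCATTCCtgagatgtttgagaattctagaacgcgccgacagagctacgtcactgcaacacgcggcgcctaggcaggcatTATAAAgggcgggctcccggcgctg
The first capitals are a match, on the opposite strand, to the TEAD motif GGAATG, 103 to 98 bases before the start. GGAATG, on either strand, was in 12.6% of the 32851 RefSeq promoter windows of this length. The second capitals are the TATA box letters TATAAA, 25 to 20 bases before the start, which 12.4% of windows hold. The AP-1 motif TGANTCA, the SMAD motif CAGAC and the CArG box bound by SRF, searched on both strands, had no match in these letters, and 6.75%, 42.2% and 1.47% of windows hold them. The matches did not overlap. A match describes the letters and is not evidence of binding.

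Ccn2, known as connective tissue growth factor and as a driver of fibrosis, gave bright signal on both of its probes, up to 36792 on an array whose highest value was 49526. Its brightest probe (ILMN_2909150) read 14823, 11661 and 15608 in control 1, control 2 and control 3. It read 36792, 29394 and 31233 in FEAT 3, FEAT 15 and FEAT 20. The groups did not overlap: the lowest FEAT clone stood 1.81-fold above the highest control clone after normalization. The other probe (ILMN_1238215) showed the same separation at lower signal. It read 6222, 4664 and 6926 in the control clones and 14862, 14130 and 13396 in the FEAT clones. On the normalized log2 scale the differences were 1.20 (SE 0.15) and 1.27 (SE 0.17), which are 2.29-fold and 2.41-fold. Centred on their means, the probes differed by at most 0.11 on the log2 scale in any clone. Control 3 was the highest and control 2 the lowest control clone on both probes, and FEAT 3 was the highest FEAT clone on both.

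Ccn1, known as Cyr61, an angiogenic and adhesion-promoting ligand of integrins, was higher in the FEAT clones on each of its 3 probes, by about the same amount. The brightest probe (ILMN_2794645) read 1428, 1343 and 1295 in control 1, control 2 and control 3. In FEAT 3, FEAT 15 and FEAT 20 it read 2350, 2079 and 2143. The groups did not overlap, and the control clones lay close to each other, at 1355 ± 67.4 (SD, n = 3). The log2 difference was 0.66 (SE 0.16), a fold of 1.58. The second probe (ILMN_2710253) gave 0.67 (SE 0.16) and the third (ILMN_1235571) 0.65 (SE 0.16). The brightest pair of probes tracked each other to within 0.039 log2 units in every clone. The third probe read 318, 358 and 367 in the control clones and 536, 483 and 606 in the FEAT clones, so its control clones were more spread and control 1 was the lowest. FEAT 3 stood 0.99 above the control mean on the brightest probe, against 0.50 in FEAT 15 and 0.48 in FEAT 20. This lead of FEAT 3 grew with normalization: the FEAT clones spanned 0.18 log2 units as deposited, 0.39 in the scaled value table and 0.51 after quantile normalization, and the array of FEAT 3 had the lowest mean intensity of the 6.

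**Figure D1:**
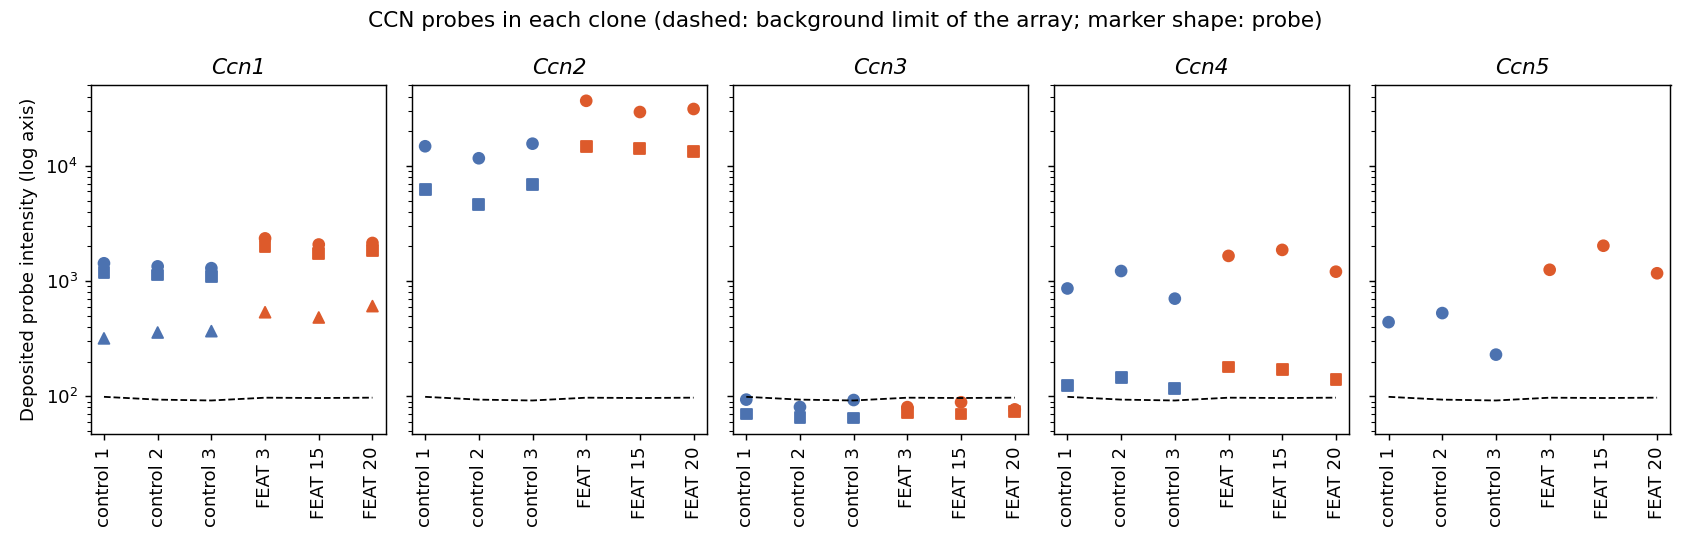
Deposited probe intensity on a log axis for the 5 CCN genes with probes, by clone; blue points are control clones, orange points FEAT clones, marker shapes separate the probes of a gene, and the dashed line is the background limit of each array. All probes of Ccn1, Ccn2 and Ccn5 have their 3 FEAT clones above their 3 control clones, Ccn4 overlaps between the groups, and Ccn3 lies at or under the limit.

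Ccn5, which lacks the C-terminal cystine knot and is known to restrain the growth of smooth muscle cells, differed most. Its 1 probe (ILMN_2486906) read 440.0, 527.6 and 230 in control 1, control 2 and control 3. It read 1254, 2029 and 1170 in FEAT 3, FEAT 15 and FEAT 20. The groups did not overlap, with the lowest FEAT clone 1.95-fold above the highest control clone after normalization. The mean log2 difference was 2.02 (SE 0.31), or 4.06-fold. Against the control mean, FEAT 3 stood at 2.05, FEAT 15 at 2.45 and FEAT 20 at 1.57. The control clones themselves were far apart, from -0.77 in control 3 to 0.61 in control 2. Without control 3 the difference was 1.64, and without control 2 it was 2.33.

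Ccn4, a Wnt-induced member known from bone and fibrotic tissue, was higher on average in the FEAT clones but its groups overlapped. The brighter probe (ILMN_2492264) read 863, 1224 and 704 in control 1, control 2 and control 3. In FEAT 3, FEAT 15 and FEAT 20 it read 1656, 1866 and 1207. Control 2 lay above FEAT 20, with log2 values of 10.3 and 10.02, while FEAT 3 and FEAT 15 lay above every control clone. FEAT 15 was the highest FEAT clone as deposited, and FEAT 3 after normalization. The dimmer probe (ILMN_2453775) had the same overlap. It read 124, 145 and 117 in the control clones and 179, 170 and 141 in the FEAT clones. The log2 differences were 0.74 (SE 0.25) and 0.45 (SE 0.20). Without control 2 the difference on the brighter probe was 1.00, and without control 3 it was 0.57.

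Ccn3, first described as a gene overexpressed in nephroblastoma and often opposed to Ccn2 in action, gave no signal that could be ordered. Its brighter probe (ILMN_1231797) was above the background limit on 1 of 3 control arrays and on 0 of 3 FEAT arrays, at 93.5, 80.7 and 92.7 in the control and 80.5, 88.7 and 76.9 in the FEAT clones. Its other probe (ILMN_1259573) was above the limit on 0 of 6 arrays, at 64.7 to 70.2 in control and 70.2 to 73.6 in FEAT clones. The differences had opposite signs, -0.27 and 0.22 on the log2 scale, and no fold is given. With a limit of 2 SDs above the mode, the brighter probe was above it on 3 of 6 arrays and the other on 0 of 6.

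**Figure D2:**
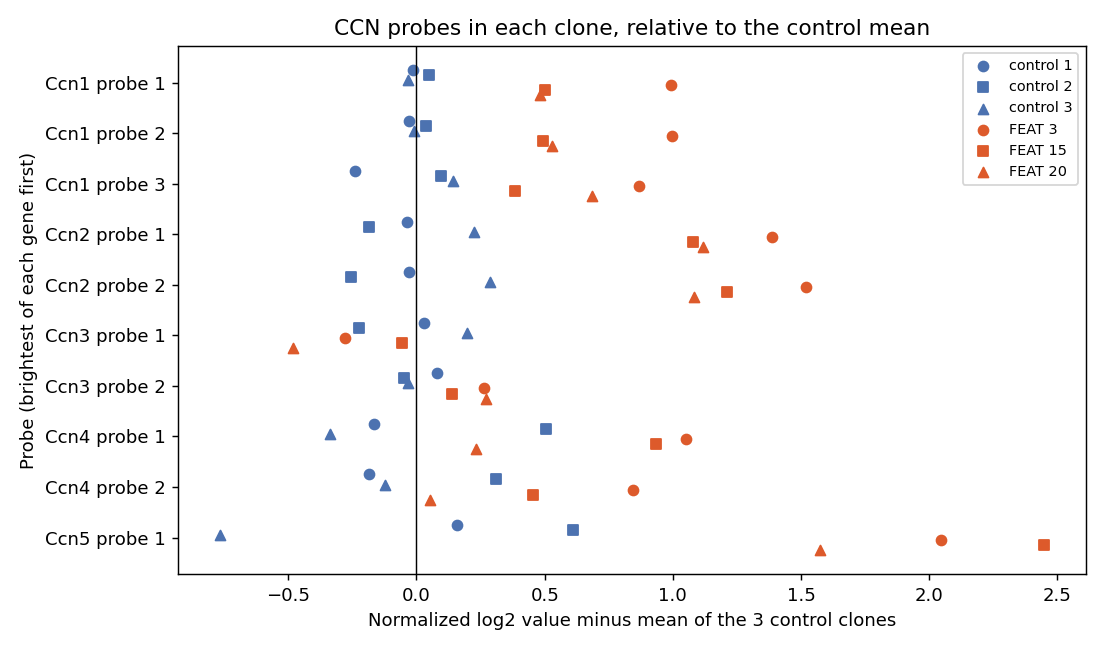
Normalized log2 value of each CCN probe in each clone, minus the mean of the 3 control clones; blue markers are control and orange markers FEAT clones, and 1 marker shape is 1 clone within its group. FEAT 3 is the highest FEAT clone on every probe of Ccn1, Ccn2 and Ccn4, whereas FEAT 15 is the highest for Ccn5.

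The fit across all 27169 probes kept 9 of the 10 CCN probes, leaving out the dimmer Ccn3 probe, and 8 of the 10 were above the background limit on all 6 arrays. At an adjusted p under 0.05 (limma, Benjamini-Hochberg) 3 of the 9 were past the threshold, both Ccn2 probes and the Ccn5 probe, all higher in FEAT clones, where 0.118% of all probes were called higher. All 3 FEAT clones lay above all 3 control clones on 6 of the 9 probes, against 7.18% of all probes tested. Since the family was chosen with this comparison known, nothing is read from these shares. The Ccn2 call was kept in 8 of 8 other settings and in 4 of the 6 fits that left out a clone, and was lost without control 1 or FEAT 3. The Ccn5 call was kept in 4 of 8 settings and 2 of 6 omissions, and was lost without control 1, control 3, FEAT 3 or FEAT 15. These refits reuse the comparison by which the family was chosen, so a kept call is no support for it. Without control 1 limma called 0 probes of the whole table, with 1934 at an unadjusted p under 0.05.

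By size, Ccn5 had the rank 6 among the 13315 genes tested, counted from the largest rise on the brightest probe. Ccn2 had rank 27, Ccn4 rank 88 and Ccn1 rank 126. The median over all genes was 0.0071 on the log2 scale, and 51.6% of genes were above 0.

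**Figure D3:**
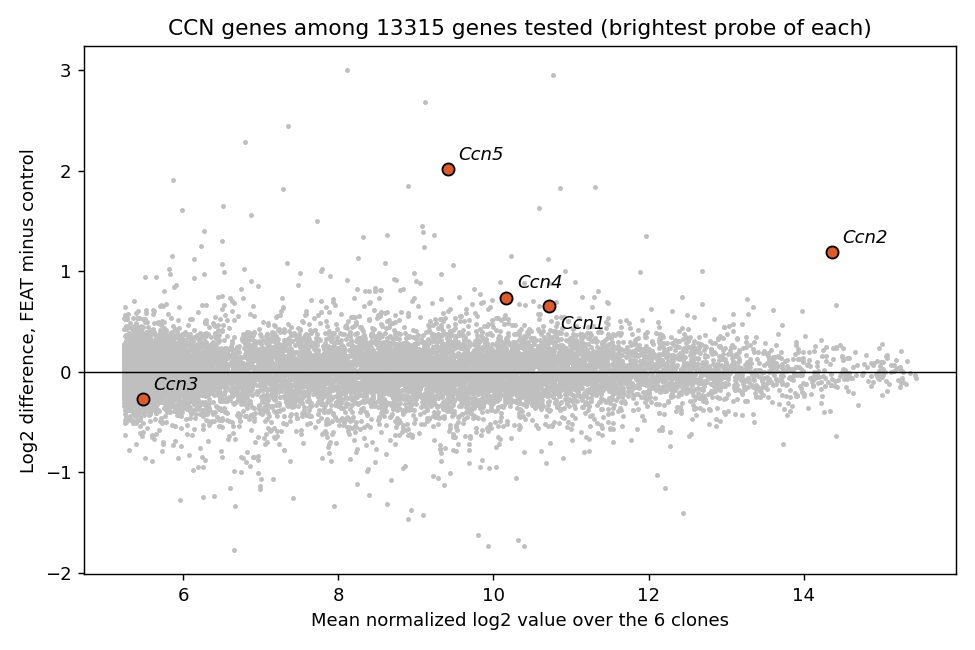
Log2 difference, FEAT minus control, against mean normalized log2 value for the brightest probe of each of 13315 genes, with the 5 CCN genes in orange. Ccn2 stands at the bright end of the array with a difference of 1.20, Ccn5 lies at 2.02 in the middle of the range, and Ccn3 is at the dim end at -0.27.

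The members differed in how much they varied between clones of the same group. Ccn4 and Ccn5 were among the more variable genes. The pooled SD within groups was 0.59 log2 units for Ccn5 and 0.44 for Ccn4, against a median of 0.17 over 8672 genes above the limit on all 6 arrays. Smaller SDs than theirs were found in 98.8% and 96.9% of those genes. The SDs of Ccn1 and Ccn2 were 0.21 and 0.19. Among the control clones, which carry no FEAT, Ccn5 spanned 1.38 log2 units and Ccn4 0.84, while Ccn1 spanned 0.083 on its brightest probe, and 5.05% of those genes spanned less. The other Ccn1 probes spanned 0.069 and 0.38 among the control clones. Ccn4 on its brighter probe and Ccn5 had their highest control value in control 2 and their lowest in control 3, and Ccn2 had the reverse. FEAT 20 was the lowest FEAT clone for Ccn4 and Ccn5.

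To find genes with a like pattern, each gene's normalized log2 values were centred on its mean over the 6 clones, and the root mean square difference to each member was taken. The measure covers the group difference as well as the clones, so such genes share the direction of the member by construction. For Ccn2 the nearest were Hbegf, an EGF receptor ligand, at 0.13, the inhibitory SMAD gene Smad6 at 0.16, the AP-1 gene Junb at 0.19, and Phldb2 and the early response gene Egr1 at 0.20 each, where the median over all 8668 genes was 0.63. For Ccn1 they were the collagen gene Col5a3 at 0.066, the phospholipase gene Pla1a at 0.090, the ribosomal protein gene Rpl22 at 0.11, Inhba, which encodes a subunit of activin, at 0.13 and the stress-inducible Gadd45b at 0.14, against a median of 0.40. The nearest to Ccn4 were matrix genes in part: Col3a1 at 0.16, the adhesion protein gene Svep1 at 0.17, the complement protease gene Masp1 at 0.18, the phosphodiesterase gene Pde1a at 0.19 and Col1a1 at 0.20 (median 0.54). For Ccn5 they were Ptx3, a secreted pentraxin, at 0.35, the scavenger receptor gene Scara5 at 0.45, the growth factor gene Fgf7 at 0.46, Tmem132a at 0.53 and the smooth muscle gene Tagln at 0.54 (median 1.13). The measure grows with a member's own spread, so its values are not compared from 1 member to the next. Between members the measure was 0.31 for Ccn1 with Ccn2 and 0.31 for Ccn1 with Ccn4. It was 0.49 for Ccn2 with Ccn4, and 0.70 to 0.84 for Ccn5 with the others.

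Other targets of the factors known to induce CCN genes were then counted, with the components of the YAP pathway and the genes of SRF and its partners. These lists and those below were fixed with earlier results of these data known, so their counts and shares are a description. At an unadjusted p under 0.05 (limma), 5.2% of all 13315 genes were higher and 4.94% lower in FEAT clones, and each list's unadjusted counts stand beside these shares. Of 18 tested targets of YAP, TAZ and TEAD, 1 rose and 0 fell (limma, adjusted over all probes; 5 higher and 2 lower at an unadjusted p under 0.05), where 0.135% of all genes rose and 0.0901% fell. The gene that rose was Nuak2, a kinase of the AMPK family, from 1021 ± 96.0 to 1937 ± 382 (SD, n = 3 clones each; log2 0.88, adjusted p = 0.0323). Ankrd1, a cardiac ankyrin repeat protein and a standard YAP target beside Ccn1 and Ccn2, read 973 ± 497 in control and 2850 ± 812 in FEAT clones, or 1.63 higher on the log2 scale, which missed the threshold (limma, adjusted p = 0.0887). Its other probe gave 1.52. Ccdc80 and Crim1 differed by 0.68 and 0.57, with 0.04 on the other probe of Ccdc80 and -0.12 and 0.23 on those of Crim1, and neither passed. That Ccdc80 probe was above the background limit on only 1 control and 1 FEAT array, and the -0.12 probe on none. The list's median was 0.098, with 11 of the 18 genes above 0. Its differences ran from -0.71 to 1.63. Of the 19 tested components of the pathway itself, 0 rose and 0 fell (limma; 0 higher and 2 lower at an unadjusted p under 0.05), with a median of -0.06. Among them Tead4 differed by -0.51 (-0.49 and -0.27 on its other probes), Amotl1 by -0.31 (-0.28 on its other) and Nf2 by -0.23. Taok1 differed by -0.21 on its brightest probe and by 0.15, -0.0032 and -0.06 on its others. Nf2 was not above the background limit on any array.

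The list of SRF and its partners with their targets, which include early response and smooth muscle genes, had 24 genes tested. Of these, 2 were higher and 0 lower (limma; 11 and 0 at an unadjusted p under 0.05), with a median of 0.34. The factor genes Srf, Mrtfa and Mrtfb are among the 24, at 0.38, 0.20 and -0.065. Junb rose from 831 ± 48.2 to 1870.0 ± 110.1 (log2 1.15, limma, adjusted p = 0.0211) and Egr1 from 4638 ± 290.0 to 9620 ± 1838 (log2 1.01, limma, adjusted p = 0.0237; SD, n = 3 clones each). Tagln and Actg2 differed by 1.82 and 2.69 and did not pass (limma, adjusted p = 0.0887 and 0.0995). Their FEAT clones were uneven. In FEAT 3, FEAT 15 and FEAT 20, Tagln read 443, 444 and 203, and Actg2 read 2334, 2340 and 594. Acta2, also a smooth muscle gene of the list, differed by -0.093 on its brightest probe. The list's differences ran from -0.096 to 2.69, with 21 of the 24 genes above 0. In 12 of the 24 genes all FEAT clones lay above all control clones, where 7.95% of all genes did. The same held for 5 of 18 YAP, TAZ and TEAD targets and 1 of 19 pathway components. It held for 5 of 15 TGF-beta and SMAD targets, 2 of 9 Wnt targets and 4 of 17 CCN receptor genes. It held for 2 genes in each other list. The reverse order was seen in 3 pathway components, 2 proteases, 1 Wnt target and 1 receptor gene, and in 0 genes of the other lists. Junb, Egr1 and, from the TGF-beta list, Smad6 are also among the 5 genes nearest to Ccn2. Inhba is among those nearest to Ccn1, Col1a1 to Ccn4 and Tagln to Ccn5. Genes with a like rise are near by construction, and a shared regulator was not tested. Of 15 TGF-beta and SMAD targets, 1 was higher and 0 lower (limma; 7 and 0 at an unadjusted p under 0.05), with a median of 0.57. Smad6 rose from 303 ± 8.44 to 619 ± 68.0 (log2 1.08, limma, adjusted p = 0.0192). The latent TGF-beta binding protein gene Ltbp3 differed by 0.74, Inhba by 0.69 and Id2 by 0.73, none of which passed on the brightest probe, while another Ltbp3 probe passed at 0.93 (limma, adjusted p = 0.0481) and the third, at 0.46, did not. The other Id2 probes gave 0.50 and 0.35. Of 15 Wnt and beta-catenin targets listed, 14 were on the array and 9, without Axin2, were tested. Of those tested, 0 were called (limma; 1 higher and 0 lower at an unadjusted p under 0.05), with a median of 0.0061. In that list the Wnt inhibitor gene Apcdd1 differed by 0.70, with 0.57 and -0.0095 on its other probes, and Myc by 0.23. The -0.0095 probe was not above the background limit on any array. Nkd2, at 0.26, was not above the background limit on any array, and Dkk1, at 0.26, was above it on 1 FEAT array alone.

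Of genes whose products act with CCN proteins, 17 for receptors were tested and 0 were called (limma; 2 higher and 2 lower at an unadjusted p under 0.05), with a median of 0.20. The integrin gene Itga6 differed by -0.61 on its brightest probe and by -0.32 and -0.16 on its others. The -0.16 probe was above the background limit on only 1 control and 1 FEAT array. The FGF receptor gene Fgfr1 differed by -0.46, with -0.015 on a dimmer probe that was above the background limit on 0 of 6 arrays. The Wnt coreceptor gene Lrp5 differed by 0.33 on its brightest probe and by 0.07 and -0.03 on its others. The 0.07 probe was above the background limit on no array, and the -0.03 probe on 2 control arrays and 1 FEAT array. Itgb2, at 0.36, was not above the background limit on any array. Among 15 ligands and matrix partners that CCN proteins bind, 0 were called (limma; 3 higher and 0 lower at an unadjusted p under 0.05), with a median of 0.15. Fibronectin, Fn1, differed by 0.54 on its brightest probe and by 0.57, 0.59 and 0.62 on its others. Perlecan, Hspg2, differed by 0.58 and 0.54 on its probes and biglycan, Bgn, by 0.31. Bmp2, at 0.28, was not above the background limit on any array. Among 12 proteases known or thought to cut CCN proteins, 0 were called (limma; 1 higher and 2 lower at an unadjusted p under 0.05), with a median of 0.056. Adamts1 differed by 0.55, with 0.37 and 0.0035 on its other probes, and Ctsb by -0.42. The 0.0035 probe of Adamts1 was above the background limit on 1 control array alone. The membrane-type metalloproteinase gene Mmp14 differed by -0.47, with 0.16 on its other probe, which was above the background limit on 1 FEAT array alone. Ctsk, at -0.34, was not above the background limit on any array.

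Of 15 other matricellular genes, 1 rose and 0 fell (limma; 2 and 0 at an unadjusted p under 0.05), with a median of 0.11. Thrombospondin, Thbs1, read 97.3 ± 6.67 in control and 185 ± 16.6 in FEAT clones, above the background limit on 2 of 3 control arrays (SD, n = 3 clones each; log2 1.30, limma, adjusted p = 0.0237). Thbs3 differed by 0.38 on its brightest probe and by 0.20 and -0.0098 on its others. Ecm1 differed by 0.46 and 0.37 and Spock1 by 0.20 and 0.06 on their probes, and none of these passed. The brightest Spock1 probe was above the background limit on 1 control and 2 FEAT arrays, the other on 2 FEAT arrays alone. All 5 genes called in these lists, Nuak2, Junb, Egr1, Smad6 and Thbs1, lost their call without control 1, without control 3 and without FEAT 3, with adjusted p (limma) from 0.0584 to 0.186. Nuak2 and Egr1 also lost it without FEAT 20. Thbs1 lost it without normexp and with an offset of 50.

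**Figure D4:**
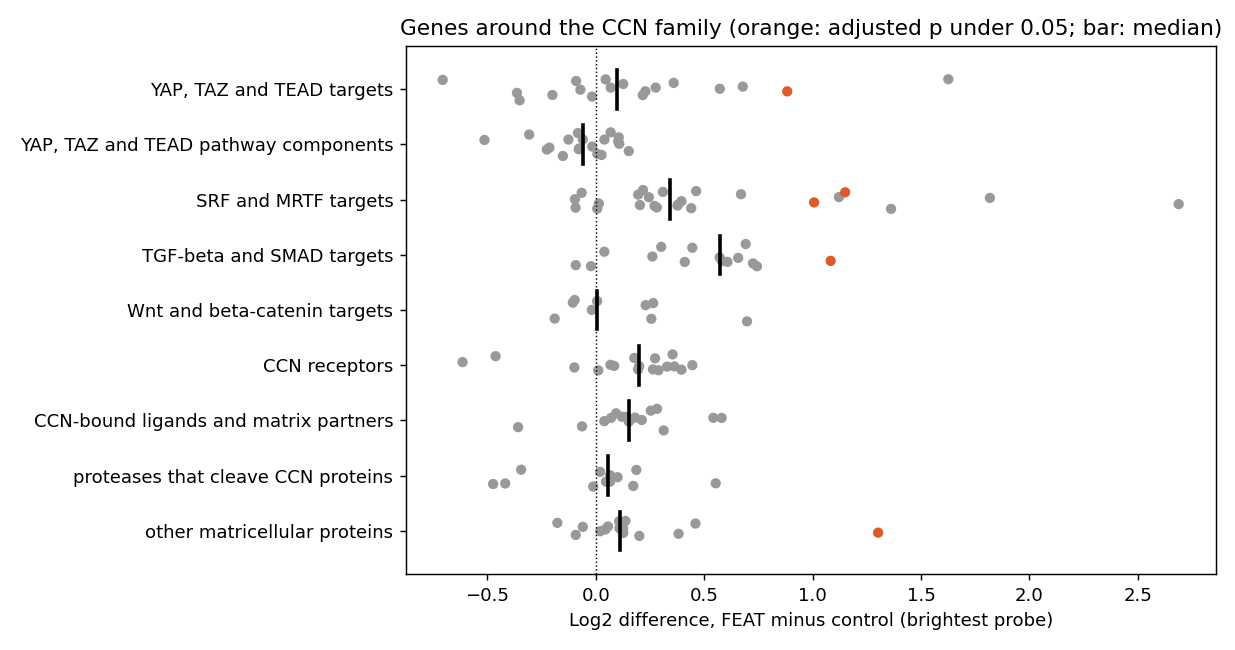
Log2 difference, FEAT minus control, of the brightest probe of each tested gene in 9 lists around the CCN family; orange points passed an adjusted p of 0.05 (limma), grey points did not, and the vertical bar is the list's median. The medians run from -0.06 for components of the YAP pathway to 0.57 for TGF-beta and SMAD targets.

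The sizes of the CCN differences moved little with the scaling and more with the clones. Over 8 other settings the log2 difference of Ccn5 ran from 1.89 to 2.03, that of Ccn2 from 1.19 to 1.21, that of Ccn1 from 0.64 to 0.68 and that of Ccn4 from 0.71 to 0.77. Settings that changed only the filter or the variance could not change these values, so the ranges come from the background and scaling settings. With a clone left out in turn the differences ran, in the same order, from 1.64 to 2.33, from 1.07 to 1.31, from 0.49 to 0.75 and from 0.57 to 1.00. The lowest value for Ccn1 and for Ccn2 came without FEAT 3.

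**Figure D5:**
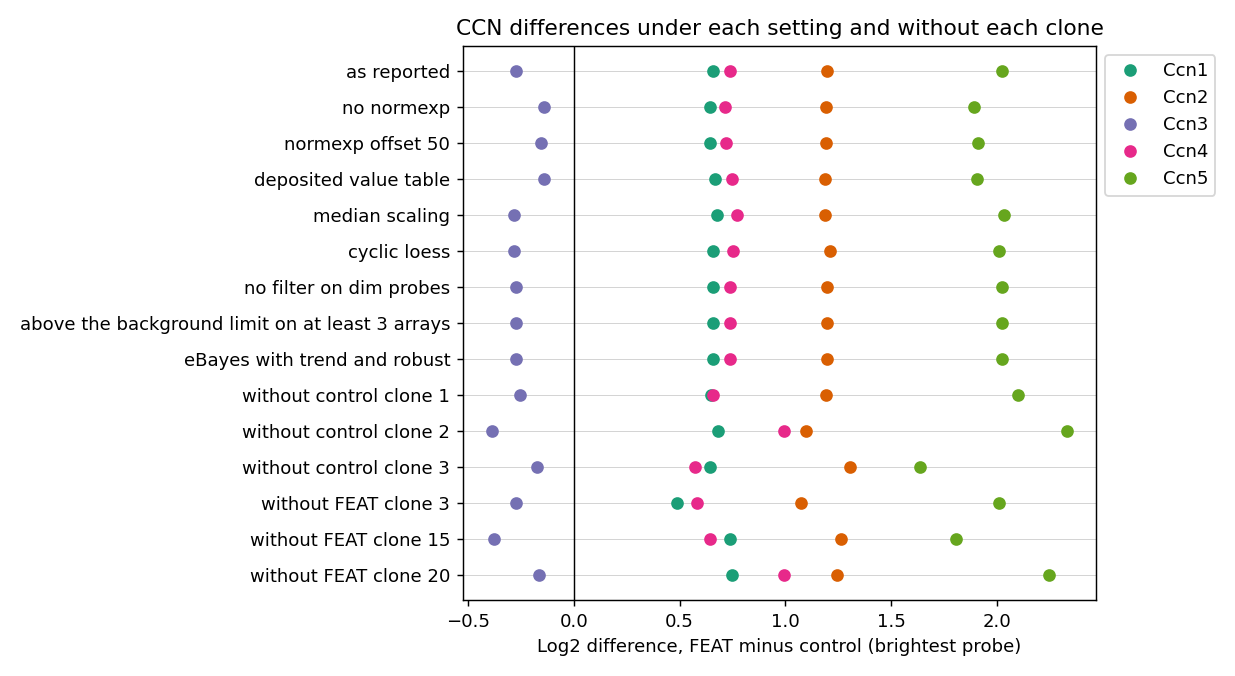
Log2 difference, FEAT minus control, of the brightest probe of each CCN gene as reported, under 8 other settings and with each of the 6 clones left out. The values of Ccn5 spread from 1.64 without control 3 to 2.33 without control 2, and Ccn3, at background, stays between -0.39 and -0.14.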

How the data were processed

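Total RNA from 6 NIH3T3 clones was isolated with RNeasy, amplified with Illumina TotalPrep, labelled with Cy3 and read on Illumina arrays, per the labels' protocols. The submitters' processing notes name BeadStudio. The deposited files held linear probe intensity values without background subtraction or scaling between arrays. A second deposited table, the scaled value table, holds each array's intensity values times its own factor (0.925 to 1.10).

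With R 4.3.3 and limma 3.58.1, intensities were corrected with normexp (offset 16; fitted to the signals, as the files used here hold no detection p), log2 transformed and quantile normalized. The planned neqc was replaced for this reason. The 60% of probes with the highest mean were tested with lmFit and eBayes, two-sided, 3 FEAT against 3 control clones, with Benjamini-Hochberg adjustment over 27169 probes. The brightest tested probe stood for its gene. Where no array of a group was above the background limit, a level there is only bounded. Probes were named through the platform annotation (34885 with 1 symbol, 18 with several, 10378 unnamed), promoters through RefSeq (GRCm38.p6); promoters of Ccn2, Ccn3, Ccn4 and Ccn5 and protein sequences were not used here. Of these steps, only the limma fit was tested on simulated data, drawn around the normalized probe means.

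The members, lists and tests were chosen with earlier results of these data known. Named are every CCN probe, up to 4 genes per list with the smallest unadjusted p, and the 5 nearest genes per member above background. Alternatives were other background, scaling, filter and variance settings, and leaving out each clone. The number of arrays, 3 per group, limits precision.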

Additional observations from a re-analysis of the deposited data

How the results depend on the processing

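No paired analysis was possible because the clone numbers of the groups, 1, 2 and 3 against 3, 15 and 20, share only 1 number and name separate lines. With each clone left out in turn, limma called 0 to 158 probes against 50 as reported (0 without control 1, 10 without control 3, 18 without FEAT 3, 158 without control 2), 0 to 3 CCN probes against 3, and 0 to 8 list genes higher and 0 to 1 lower against 5 and 0. Under median scaling, 8 list genes were called higher, among them Ankrd1, Tagln and Actg2. The other Ccn3 probe gave 0.22 against -0.27, with both probes at background. No CCN difference changed sign under the 8 other settings or the 6 omissions, and none moved by 1 within-group SD. Leaving out 1 of 3 clones can hardly move a difference that far, so nothing is read from this for the omissions. Settings of the filter and the variance leave the differences unchanged by construction. For 36 genes named from the lists, 467 of 495 recomputed differences kept their sign and side of the threshold, 19 lost the call, 9 gained it and 0 reversed. Under 5 other scalings, added after the data were seen, at least 4 of the 5 nearest genes stayed the same for each member, except 3 of 5 for Ccn2 with the deposited value table. TATAAA was also added then. Dim probes limit Ccn3: signal near background cannot show a difference here.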
